A study of Mus musculus with 6 samples.

Results

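The S100 and annexin genes encode the main families of small and membrane-binding calcium sensors of animal cells outside the calmodulin family. The genes described here were those in the deposited quantifications with at least 1 protein-coding transcript and a symbol made of Anxa and a number, of S100a and a number, or S100b, S100g, S100z or S100pbp. S100a8 and S100a9 were left out of the selection, and the form of the symbol left out S100a7a (3.69 TPM on average) and S100a7l2 (2 read pairs in all). They numbered 27 of the 21669 genes with a protein-coding transcript: 14 S100 genes, 12 annexin genes and S100pbp. The product of S100pbp, S100P-binding protein, is not itself an S100 protein. The rule that chose them uses no measured value, but it was set with earlier results of these data known. Their 73 protein-coding transcripts were summed to 1 value per gene and pool, and their 43 other transcripts (retained introns, non-coding and decay products) were summed separately.

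RNA was measured in the left sciatic nerve of C57BL/6 mice aged 6 to 8 weeks, 24 h after a sham operation. There were 3 female and 3 male pools, each of 2 mice, and every pool in both sexes had the same operation and interval. No unoperated nerve is part of the comparison, and axotomized nerves were not analysed here. The comparison that the design allows is female sham against male sham, and the question is whether the level of these genes in a nerve without axotomy depends on sex.

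S100 proteins are small proteins with EF-hand motifs that usually work as dimers. On binding calcium they expose a surface that docks target proteins, and several are also released and act on receptors outside the cell. Annexins bind the acidic phospholipids of membranes when calcium rises, through a conserved core of repeats, and carry differing N-terminal tails. The families meet physically: S100A10 binds the tail of annexin A2, S100A11 that of annexin A1, and S100A6 binds annexin A11. In peripheral nerve S100B is the classical marker of Schwann cells, and S100A4 is known from fibroblasts and leukocytes.

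The 6 libraries held 55949876 to 78473057 estimated read pairs, with 91.0% to 91.5% in protein-coding transcripts. Female pool 2 stood apart in fast skeletal muscle markers, at 2866 TPM summed over 8 genes against 13.1 to 181 TPM in the other pools, and no gene of the set was called with or without it. Erythroid markers ranged from 4670 TPM (male pool 3) to 28632 TPM (female pool 3). Summed Schwann cell, fibroblast, perineurial and endothelial markers were present in every pool. The pseudogene S100a11-ps had 0 read pairs and the antisense gene Anxa11os had 8, while S100a7a, outside the selection, had 1049. How Salmon divided reads between family members was not tested.

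S100 and annexin messages were abundant in sham nerve, and none of them was called between the sexes. Of the 27 genes, 19 passed the filter on low values (a CPM, the read pairs scaled to the library total, of 0.5 or more in 3 or more pools), and 13 reached a mean of 100 TPM, a level per transcript length that sums to the same total in every pool. The S100 genes summed to 6664 ± 197 TPM (females) and 6841 ± 475 TPM (males; SD over 3 pools each), and the annexins to 2334 ± 129 and 2388 ± 22.5 TPM. The S100 genes of the set thus made up 0.675% of all TPM and the annexins 0.236%. S100a8 and S100a9, left out of the set, had means of 1777 and 2243 TPM and are not in these shares. The 4 highest S100 genes of the set held 91.1% of its S100 sum, and the 3 highest annexins held 76.2% of the annexin sum. The ranges of both sums overlapped between the sexes.

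None of the 19 genes that passed the filter was called between the sexes at an adjusted p under 0.1 by edgeR's quasi-likelihood test, where 0.0603% of all 23208 features tested were called. None had an unadjusted p under 0.05 in edgeR, where 5.25% of all features did. In DESeq2 none was called and none had an unadjusted p under 0.05, against 0.51% and 3.32% of the features with a value there. Log2 fold changes of females over males ran from -0.21 (S100a4) to 0.12 (S100a16), 7 above 0 and 12 below, with a median of -0.03 against 0.00 over all features. The 95% intervals of the 19 genes lay between -0.58 and 0.32, or 0.671-fold to 1.25-fold, so a change of 2-fold in either direction lay outside the interval of each. Smaller differences were not resolved with 3 pools per sex, and an uncalled gene is not shown to be equal.

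**Figure D1:**
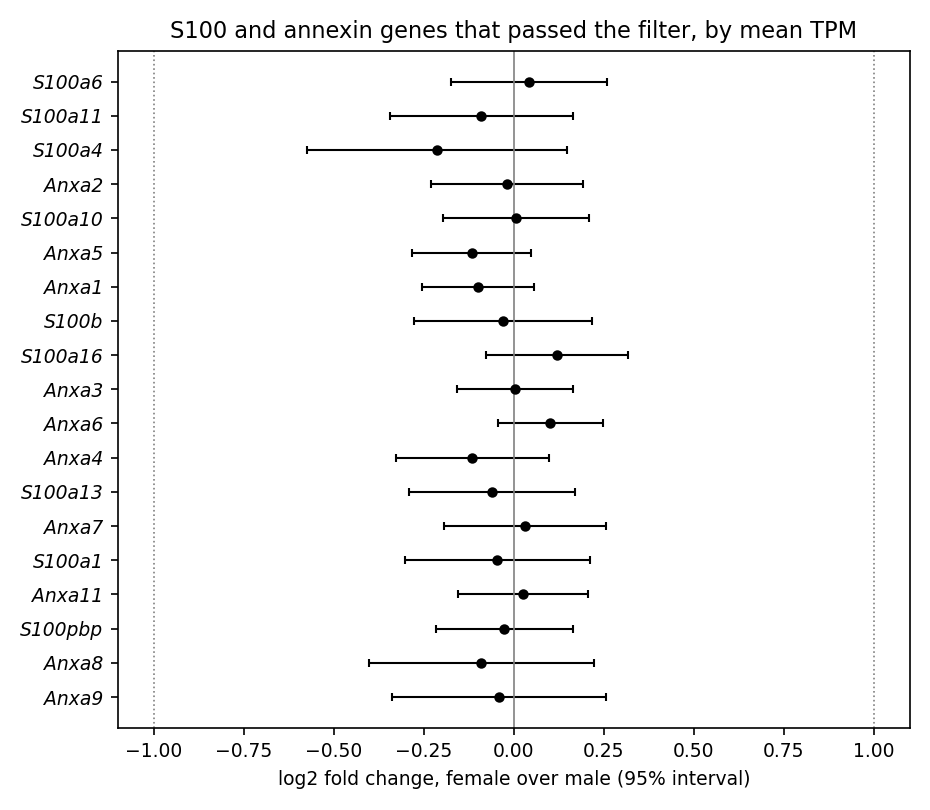
Log2 fold change of female over male sham nerve (horizontal axis) with its 95% interval from edgeR, for the 19 S100 and annexin genes that passed the filter, ordered from the highest mean TPM at the top. Dotted lines mark a log2 fold change of 1 in either direction, and every interval crosses 0 and ends well inside the dotted lines.

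Of the 14 S100 genes, 11 are on mouse chromosome 3 (GRCm39), and 9 of these sit within 120 kb at chr3:90416091-90535843 in the order S100a13, S100a1, S100a14, S100a16, S100a2, S100a3, S100a4, S100a5 and S100a6. S100a11 and S100a10 form a second group on the same chromosome at chr3:93414382-93474510. S100b is on chromosome 10, S100z on chromosome 13 and S100g on the X chromosome. The 12 annexin genes are spread over 9 chromosomes.

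Neighbours in the chromosome 3 group differed widely in level. S100a4 and S100a6 flank S100a5, and they had mean levels of 1519 and 2279 TPM while S100a5 had 0.173 TPM, from 10 estimated read pairs over all 6 pools. The 80 bases before the start of the main coding transcript are shown for these neighbours, since adjacent genes differ so far in level, and for S100a11 and Anxa2, which were chosen for a motif match after the windows were searched. They were read from GRCm39 on the plus strand at chr3:90510995-90511074 (S100a4), chr3:90516607-90516686 (S100a5), chr3:90520060-90520139 (S100a6), chr3:93427597-93427676 (S100a11) and chr9:69360822-69360901 (Anxa2). Capitals mark matches to TATAAA (the TATA box core) or TGANTCA (the AP-1 motif), and lower case is all other sequence.
S100a4: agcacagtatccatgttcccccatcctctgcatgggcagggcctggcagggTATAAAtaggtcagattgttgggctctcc
S100a5: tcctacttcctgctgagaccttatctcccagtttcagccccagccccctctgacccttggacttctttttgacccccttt
S100a6: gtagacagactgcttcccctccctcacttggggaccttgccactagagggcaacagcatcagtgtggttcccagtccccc
S100a11: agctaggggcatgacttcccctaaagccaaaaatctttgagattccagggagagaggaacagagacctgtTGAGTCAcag
Anxa2: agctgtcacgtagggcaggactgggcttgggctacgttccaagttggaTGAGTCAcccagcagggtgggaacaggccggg

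S100a4 has TATAAA beginning 29 bases before its start, and S100a11 and Anxa2 have TGAGTCA beginning 10 and 32 bases before theirs. In windows of 300 bases before the start, searched on both strands, TATAAA was found in 5 of the 27 genes against 9.47% of 14049 windows of tested genes, TGANTCA in 3 of 27 against 5.99%, and GGGCGG (the core of the Sp1 motif) in 7 of 27 against 48.4%. Of the 27 genes 8 did not pass the filter, and those with a match were Anxa10 and Anxa13 (TATAAA), Anxa10 (TGANTCA) and S100a3 (GGGCGG). The S100 windows held few CpG dinucleotides, with a median of 3.5 (range 1 to 13) over the 14 genes. Annexin windows had a median of 6.5 (range 1 to 14), where the median over the windows of tested genes was 13. A match describes letters in a window and no more.

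S100a6 (calcyclin) had the highest mean TPM of the set, 30th of 14063 protein-coding features tested. It stood at 2392, 2326 and 2201 TPM in female pools 1 to 3 and at 2137, 2247 and 2369 TPM in male pools 1 to 3. The sexes overlapped almost fully, with a log2 fold change of 0.04 (SE 0.09, adjusted p = 0.97 in edgeR). Transcripts of S100a6 that are not protein-coding, chiefly one with a retained intron, added a mean of 119 TPM. They were at 185, 136 and 93.9 TPM across the female pools, against 113, 97.3 and 86.4 TPM across the male pools, and the groups overlapped (log2 fold change 0.46, SE 0.21, adjusted p = 0.94 in edgeR).

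S100a11 (calgizzarin) and S100a4 (metastasin) came next in the set, and their ranges overlapped each other. S100a11 was at 1652, 1658 and 1411 TPM over female pools 1 to 3, and at 1613, 1533 and 1740 TPM over male pools 1 to 3 (log2 fold change -0.09, SE 0.11, adjusted p = 0.96 in edgeR). S100a4 was at 1267, 1557 and 1453 TPM for the female pools, while the male pools had 1332, 1685 and 1820 TPM. The first pool of each sex was the lowest of its sex, male pools 2 and 3 were the highest of all, and the groups overlapped. Among the 19 genes that passed the filter, S100a4 had the largest difference at a log2 fold change of -0.21, with an interval of -0.58 to 0.15 (SE 0.16, adjusted p = 0.94 in edgeR). Among these 19 it also had the widest spread, at 1.44-fold between its highest and lowest pool. Without male pool 3 its log2 fold change was -0.05, and without male pool 1 it was -0.36, with no call in either case and an unadjusted p of 0.024 in the latter.

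S100a10 (p11) was steady among pools, at 769, 736 and 774 TPM across the female pools, against 720, 744 and 790 TPM across the male pools. Its log2 fold change was 0.01 (SE 0.09, adjusted p = 0.999 in edgeR), and the sexes overlapped. Its annexin partner Anxa2 is described with the annexins below.

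S100b, the Schwann cell gene, and S100a1, a relative best known from striated muscle and also made in glia, were both lowest in female pool 1 and highest in female pool 3. S100b was at 235, 263 and 290 TPM over female pools 1 to 3, and at 260, 261 and 272 TPM over male pools 1 to 3, and the male values lay inside the female range. S100a1 was at 74.3 ± 8.37 TPM (females) and 76.2 ± 2.91 TPM (males; SD over 3 pools each), from 65.1 TPM in female pool 1 to 81.5 TPM in female pool 3. Neither was called (log2 fold changes -0.03 and -0.05, SE 0.11 each, adjusted p = 0.99 and 0.98 in edgeR). The TPM ratio of S100a1 to S100b stayed between 0.277 and 0.296 over the 6 pools. In female pool 2, with its high fast muscle markers, S100a1 was at 76.3 TPM, inside its range in the other pools. The part of muscle in the S100a1 level was not tested. The summed myelinating Schwann cell markers (6 of 6 passed the filter) were lowest in female pool 1 too, at 32849 TPM against 38234 to 42008 TPM in the others, and their part in the S100b and S100a1 levels was not tested. In bulk nerve, fewer cells of a type and less RNA per cell cannot be told apart.

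S100a16 and S100a13 completed the S100 genes of the set at or above 100 TPM. S100a16 was at 168, 142 and 148 TPM for the female pools, while the male pools had 142, 142 and 143 TPM, and female pool 1 alone stood apart from the others. Its log2 fold change of 0.12 was the highest of the 19 (SE 0.09, adjusted p = 0.94 in edgeR). It was 0.04 without female pool 1 and 0.18 without female pool 2 or without male pool 3. S100a13, whose product takes part in the unconventional export of fibroblast growth factor 1, was at 97.8, 110 and 116 TPM across the female pools, against 105, 118 and 118 TPM across the male pools, and the sexes overlapped (log2 fold change -0.06, SE 0.10, adjusted p = 0.97 in edgeR). S100a13 and S100a1 overlap on opposite strands of the genome. The libraries were strand-specific, and how well their reads were separated was not tested.

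The remaining S100 genes did not pass the filter. S100a3 was at 1.22, 0.509 and 1.16 TPM over female pools 1 to 3, and at 0.968, 1.44 and 1.49 TPM over male pools 1 to 3. S100a14, an epithelial S100, was at 0.455, 0.646 and 0.320 TPM for the female pools, while the male pools had 0.312, 0.349 and 0.296 TPM. Both sets of values overlapped between the sexes. The X-linked S100g (calbindin-D9k) was at 0.600, 0.113 and 0.486 TPM across the female pools, against 0.0849, 0.301 and 0.317 TPM across the male pools, from 18 read pairs in all. S100a5 was at 0.254, 0 and 0 TPM over female pools 1 to 3, and at 0.261, 0.209 and 0.315 TPM over male pools 1 to 3, and S100a2 rested on 2 read pairs, 1 in female pool 3 and 1 in male pool 2. At so few reads no difference was detectable. S100z was listed at 0 in all 6 pools, and a count of 0 among 384129759 read pairs allows a CPM of up to 0.00781. That limit, for 3 counts over all pools, covers counting error only. The keratin genes Krt5 and Krt14 were at or near 0 and only 1 of 4 keratinocyte markers passed the filter, with a sum of 3.66 to 5.76 TPM over the pools. S100pbp, on chromosome 4, was at 15.7 ± 0.738 TPM (females) and 15.2 ± 1.20 TPM (males; SD over 3 pools each), near the median of all protein-coding features tested (15.3 TPM). Its log2 fold change on counts was -0.03 (SE 0.08, adjusted p = 0.98 in edgeR), opposite in sign to its TPM, which also corrects for transcript length.

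**Figure D2:**
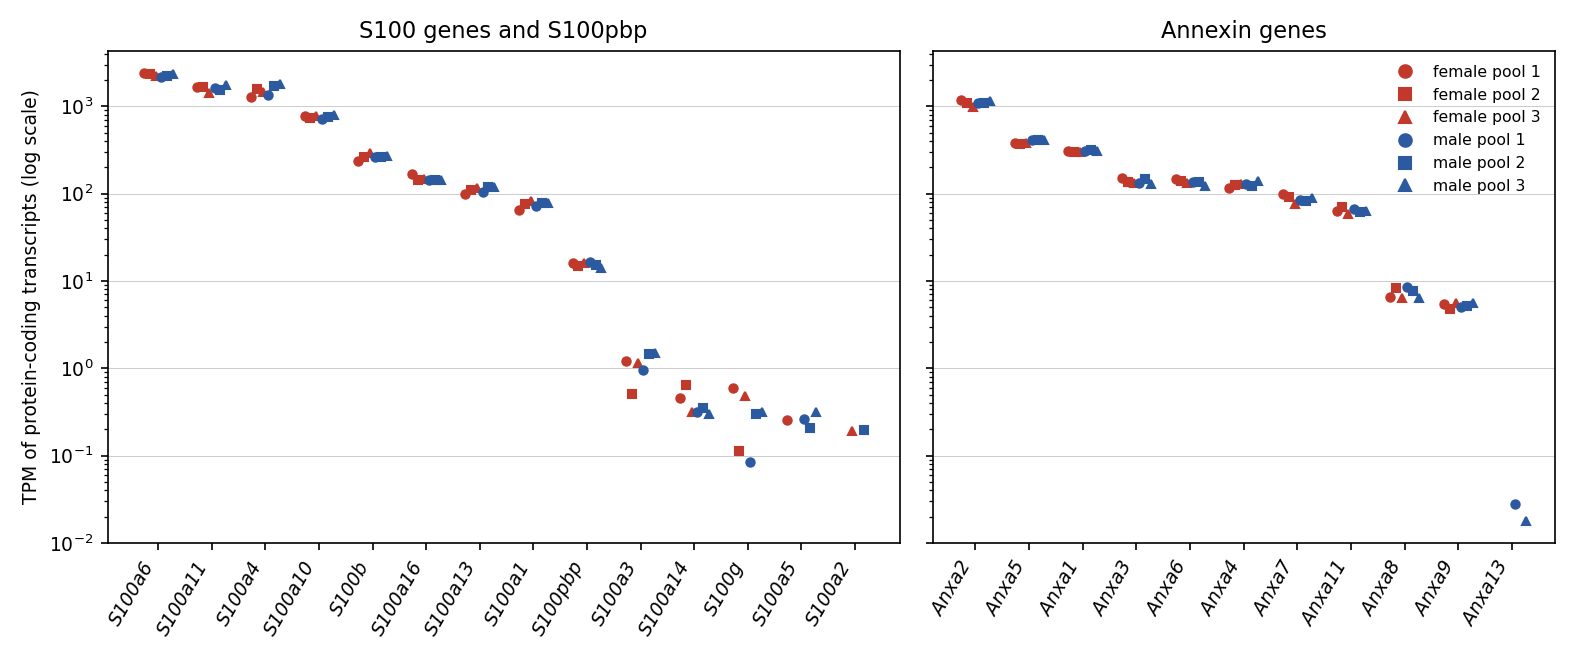
TPM of the protein-coding transcripts of each gene in each pool, on a log scale, for S100 genes with S100pbp (left) and annexins (right), ordered by mean. Red points are female pools and blue points male pools. Values of 0 are not drawn, and S100z and Anxa10 were 0 in every pool. The pools of each gene that passed the filter lie within 1.44-fold of each other, while mean levels span from 2279 TPM (S100a6) down to 0.00766 TPM (Anxa13).

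Among annexins, Anxa2 was the most abundant, 99th of the protein-coding features tested. It was at 1189, 1096 and 979 TPM for the female pools, while the male pools had 1089, 1091 and 1138 TPM, and female pools 1 and 3 were the highest and the lowest of all. Its log2 fold change was -0.02 (SE 0.09, adjusted p = 0.99 in edgeR). Annexin A2 forms a tetramer with S100A10 that binds plasminogen and its activator at the cell surface. The TPM ratio of S100a10 to Anxa2 was 0.703 ± 0.0766 in females and 0.679 ± 0.0168 in males (SD, n = 3 pools each) and lay between 0.647 and 0.790 in every pool. The other pairs known to bind had ratios of 4.67 to 5.64 (S100a11 to Anxa1) and 32.1 to 38.0 (S100a6 to Anxa11), and in none did the sexes separate.

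Anxa5 and Anxa1 were the 2 of 19 tested genes whose TPM did not overlap between the sexes, where 12.0% of the protein-coding features tested did not overlap. Anxa5 encodes the protein used to stain phosphatidylserine on dying cells. It was at 384, 369 and 383 TPM across the female pools, against 409, 407 and 413 TPM across the male pools, with each male pool above each female pool. The log2 fold change was -0.12 (SE 0.07, unadjusted p = 0.137, adjusted p = 0.94 in edgeR). Anxa1 encodes an anti-inflammatory mediator that acts through formyl peptide receptors. It was at 304, 298 and 302 TPM over female pools 1 to 3, and at 311, 319 and 308 TPM over male pools 1 to 3, again higher in every male pool, with a log2 fold change of -0.10 (SE 0.07, adjusted p = 0.94 in edgeR). All 3 male pools were above all 3 female pools in 7.45% of the protein-coding features, and the TPM separation is a description of these pools, not a call. The summed macrophage markers also did not overlap, at 676 to 686 TPM (females) and 761 to 837 TPM (males). Of the 4, Csf1r (162 to 181 against 189 to 240 TPM) and Cd68 (284 to 298 against 335 to 439 TPM) were higher in every male pool, Adgre1 overlapped, and Mrc1 overlapped at 106 to 134 TPM in female pools and 76.6 to 132 TPM in male pools. All 4 markers passed the filter, none was called and none was at 0. The summed fibroblast markers overlapped, at 3861 to 4327 TPM in female pools and 3854 to 4672 TPM in male pools. Among them Col1a1 was higher in every male pool (481 to 530 against 617 to 819 TPM), while Dcn, Lum and Pdgfra overlapped. None of these was called. Among markers of other cell types, L1cam (12.5 to 14.7 against 15.4 to 16.4 TPM) and Myh11 (5.60 to 7.25 against 7.46 to 8.66 TPM) were also higher in every male pool. Itgb4, Lep and Ngp were higher in every female pool, and no marker tested was called. The part of any of these markers in the Anxa1, Anxa5 and S100a4 values was not tested.

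Anxa3, Anxa6 and Anxa4 had overlapping ranges and their order by level is not resolved. Anxa3 was at 150, 134 and 133 TPM for the female pools, while the male pools had 134, 146 and 130 TPM (log2 fold change 0.00, SE 0.07, adjusted p = 0.999 in edgeR). Anxa6, an annexin with a doubled core, was at 145, 139 and 133 TPM across the female pools, against 136, 135 and 123 TPM across the male pools (log2 fold change 0.10, SE 0.06, adjusted p = 0.94 in edgeR). Anxa4 was at 116, 124 and 129 TPM over female pools 1 to 3, and at 130, 121 and 139 TPM over male pools 1 to 3 (log2 fold change -0.12, SE 0.09, adjusted p = 0.94 in edgeR). The sexes overlapped in each of them.

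Anxa7 and Anxa11, which carry long N-terminal tails, were lower. Anxa7 was at 88.6 ± 12.2 TPM (females) and 85.3 ± 3.05 TPM (males), and Anxa11 at 64.0 ± 6.18 and 63.7 ± 2.46 TPM (SD, n = 3 pools each). Anxa8 was at 7.04 ± 1.04 and 7.46 ± 1.08 TPM. Anxa9, the lowest annexin that passed the filter, was at 5.52, 4.78 and 5.53 TPM for the female pools, while the male pools had 5.03, 5.12 and 5.54 TPM, with full overlap. The log2 fold changes of Anxa7, Anxa11, Anxa8 and Anxa9 were 0.03, 0.03, -0.09 and -0.04 (adjusted p from 0.96 to 0.98 in edgeR). Anxa13, an intestinal and renal annexin, rested on 3 read pairs (2 in male pool 1 and 1 in male pool 3), and Anxa10, a gastric annexin, was listed at 0 in every pool with the same upper limit as S100z.

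The spread of these genes over the 6 pools was about that of other genes of like level. The median coefficient of variation was 6.49% over the 19 tested genes and 8.78% over all protein-coding features tested. Among features of at least 100 TPM it was 6.32% for the 13 genes of the set and 6.65% for 1231 features. Of the 19, Anxa1 had the lowest value at 2.41% and S100a4 the highest at 13.9%. The neutrophil genes S100a8 and S100a9, left out of the selection, varied more, from 1320 to 2365 TPM and from 1682 to 2941 TPM, both lowest in female pool 3 and highest in female pool 2. S100a6, of a like level, was between 2137 and 2392 TPM over the same pools.

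**Figure D3:**
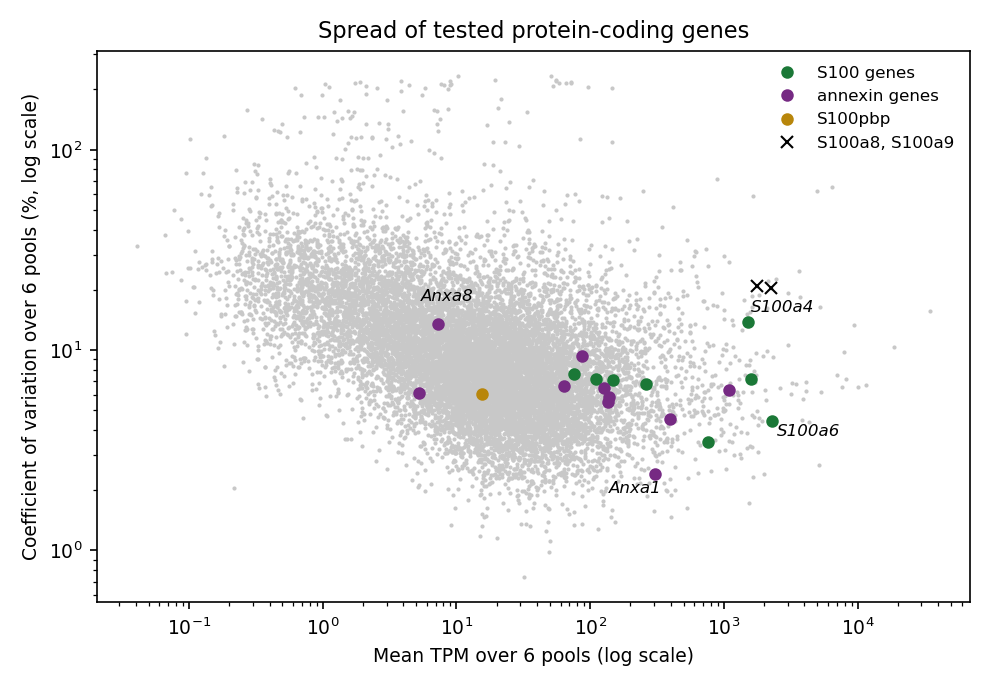
Coefficient of variation over the 6 pools (vertical axis, percent, log scale) against mean TPM (horizontal axis, log scale) for protein-coding features tested, in grey. S100 genes are green, annexins purple, S100pbp gold, and crosses are S100a8 and S100a9. Of the 19 coloured genes Anxa1 lies lowest at 2.41% and S100a4 highest at 13.9%, below both crosses.

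In 12 of the 19 tested genes 1 coding transcript held over 95% of the coding TPM, and the other 7 genes had 17 isoforms with a mean share between 5% and 95%. In Anxa6 and Anxa7 the 2 leading forms differ by a short exon in the coding sequence. The exons are shown with 15 flanking bases of the transcript on each side, in the direction of transcription, with the exon in capitals. They lie on the minus strand of GRCm39 at chr11:54877877-54877894 (exon 21 of 26 of Anxa6-202) and chr14:20517526-20517591 (exon 6 of 14 of Anxa7-202).
Anxa6-202: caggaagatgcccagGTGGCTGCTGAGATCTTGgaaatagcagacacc
Anxa7-202: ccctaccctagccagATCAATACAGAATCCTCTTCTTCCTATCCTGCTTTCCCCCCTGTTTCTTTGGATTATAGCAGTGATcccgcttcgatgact

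The Anxa6 exon has 18 bases and the Anxa7 exon 66 bases, so they hold 6 and 22 whole codons. In GENCODE M39, from which the exon was read, it is the only exon that tells Anxa7-202 from Anxa7-201. In the older annotation of the deposited values their total lengths differ by 53 bases, so there they also differ outside this exon. The shares below are those of whole transcripts in the deposited values. Anxa6-202, with its exon, made up 69.1%, 67.4% and 65.6% of coding Anxa6 in females and 63.7%, 67.0% and 65.1% in males. The form without it, Anxa6-201, made up the rest, and the sexes overlapped. Anxa7-202 made up 17.02%, 21.7% and 17.2% of coding Anxa7 in females and 13.8%, 12.3% and 14.1% in males, so each female pool was above each male pool. An Anxa7 protein lengthened by a cassette exon is known from striated muscle. The share of Anxa7-202 was highest in female pool 2, the pool with 2866 TPM of fast muscle markers. In the other female pools it was 17.02% and 17.2%, above the male values. The part of muscle in the Anxa7-202 shares was not tested. Anxa4-209, at 5.20% to 6.99% in females and 3.13% to 4.98% in males, and Anxa9-201, at 87.0% to 92.8% in females and 93.2% to 97.4% in males, also did not overlap. The rest of coding Anxa9 rested on few estimated read pairs, 0 to 6 per pool for Anxa9-203 and 0 to 24.8 for Anxa9-202. Non-overlap was thus seen in 3 of 17 isoforms of the set, against 9.75% of all 18839 coding isoforms with such shares. The files carry no estimate of how surely Salmon split reads among isoforms, so these shares were not tested.

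**Figure D4:**
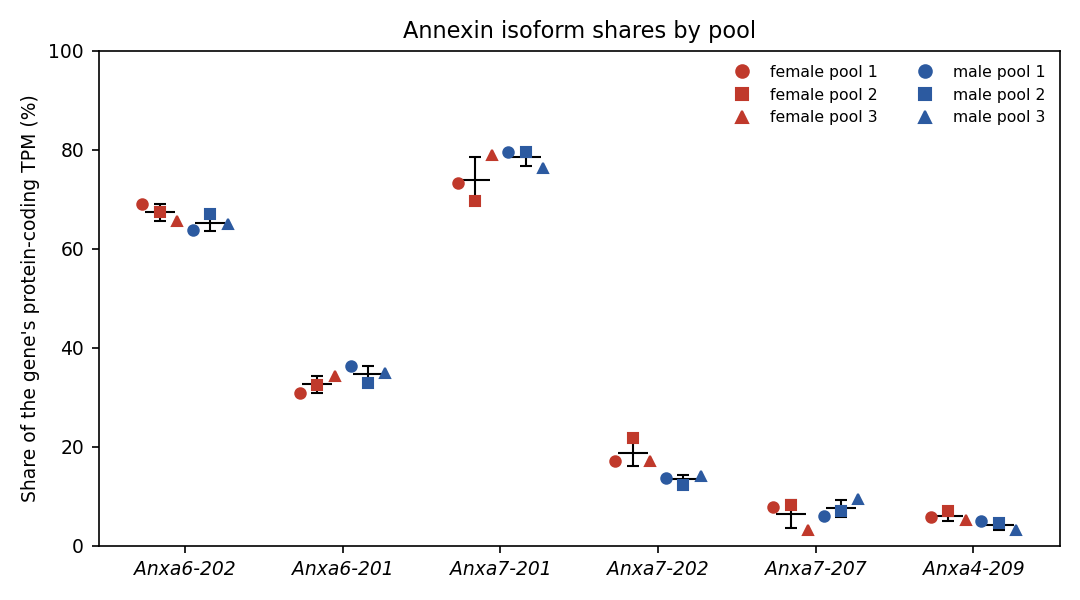
Share of each gene's protein-coding TPM (percent, vertical axis) held by isoforms of Anxa6, Anxa7 and Anxa4 in each pool. Red points are female and blue points male pools, and black marks are means with SD over 3 pools. Anxa7-202 lies at 17.02% to 21.7% in females and 12.3% to 14.1% in males, while the Anxa6 shares overlap.

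Other mixtures overlapped between the sexes. S100a16-202 held 79.6% to 82.8% of coding S100a16, Anxa3-201 held 82.8% to 88.9% of coding Anxa3, and S100pbp was split over 4 isoforms of which S100pbp-204 was the largest at 51.0% to 64.5%. Transcripts that are not protein-coding were sizeable beside the coding ones in Anxa3 (45.8 TPM, 33.3% of the coding level), Anxa7 (26.4 TPM, 30.3%) and S100pbp (3.98 TPM, 25.7%). Of 16 such features in the set 10 passed the filter, and edgeR called none of them and gave none an unadjusted p under 0.05. DESeq2 gave a p to 15 of the 16 and called none. It gave 1 an unadjusted p under 0.05, where 3.32% of all features with a p had one.

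Genes whose products bind S100 proteins or annexins were examined as a list of 19, of which 18 passed the filter and plasminogen (Plg) did not. None was called in either direction, and none had an unadjusted p under 0.05, in edgeR or DESeq2. Of the 18, 9 had a log2 fold change above 0 and 9 below, with a median of 0.01. The highest were S100a9 (2243 TPM) and S100a8 (1777 TPM), and then Ahnak, a giant scaffold bound by the complex of S100A10 and annexin A2, at 297 TPM. The smallest p values belonged to myoferlin (Myof), a membrane repair protein, with a log2 fold change of -0.15 (unadjusted p = 0.060), and calcyclin-binding protein (Cacybp), which binds S100A6, with 0.12 (unadjusted p = 0.093), both with an adjusted p of 0.94 in edgeR. Among receptors, the S100 receptor Ager was at 1.15 TPM, while Tlr4 was at 36.0 TPM and the formyl peptide receptor genes Fpr1 and Fpr2 were at 26.1 and 62.4 TPM.

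A list of 24 other calcium sensors, mostly EF-hand proteins, served for comparison, and 22 passed the filter. Calb1 and Calb2 did not. None was called in edgeR or DESeq2, and 1 had an unadjusted p under 0.05 in each, against 5.25% and 3.32% of all features. Of the 22, 6 had a log2 fold change above 0 and 16 below, with a median of -0.08. The gene with the smallest p was Lcp1 (plastin 2 of leukocytes), with a log2 fold change of -0.21 (unadjusted p = 0.037, adjusted p = 0.94 in edgeR), and the next was Hpcal1 with -0.18 (unadjusted p = 0.072). The highest levels were those of calmodulin 2 (Calm2) at 576 TPM and calumenin (Calu) at 326 TPM, so S100a6, S100a11, S100a4, Anxa2 and S100a10 each had a higher mean TPM than any sensor of that list. The muscle sensors Pvalb and Tnnc2 were at 307 and 384 TPM in female pool 2 and at most 7.30 and 24.8 TPM elsewhere.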

How the data were processed

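From pools of 2 mice the authors prepared stranded, poly-A selected libraries and trimmed paired reads with Trimmomatic 0.39. They quantified GENCODE mouse transcripts with Salmon (1.5.2 in the submitters' processing notes, another version in the paper's list of resources). The paper also reports control of batch effects with removeBatchEffect and RUVseq. It names no batch, and none was modelled here. The deposited values are estimated counts of read pairs, which need not be whole, and TPM, which the authors' software scales per effective length to a fixed total in each pool; TPM is not corrected for composition between pools. The files also give transcript lengths.

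Here protein-coding transcripts of a gene formed 1 feature and its other transcripts another. Summed counts were rounded, features reaching a CPM of 0.5 in 3 or more pools were kept, and females were compared with males in edgeR 4.0.16 (TMM, robust quasi-likelihood, no covariate, R 4.3.3) with Benjamini-Hochberg adjustment at 0.1, the study's threshold. DESeq2 1.42.0 served as the other count test. The common biological coefficient of variation came to 0.180. Every gene of the set is accounted for; values in each pool are given from 100 TPM, where groups did not overlap, for the highest and lowest of each family, and below the filter. From each list the 2 highest and the 2 of smallest p are named, and further genes were named after their values were seen. The genes and lists were chosen with earlier results of these data known. Coordinates and sequences are from GRCm39 with GENCODE M39. Counts of replicate pools differed by more than sampling noise. Scripts were tested on simulated data.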

Additional observations from a re-analysis of the deposited data

How the results depend on the processing

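No S100 or annexin gene was called under any of the 14 alternative fits, which were DESeq2, RLE factors, no filter, a CPM minimum of 2, all transcripts of a gene, length offsets, a fit that was not robust, the replicate block and each pool left out; the lowest adjusted p among them was 0.703. Of 266 recomputed log2 fold changes, 24 changed sign, in 12 genes whose reported size was at most 0.09. With length offsets Anxa11 was -0.00106, S100pbp 0.0425 and Anxa9 0.00609. Over the fits that left out 1 pool each, the ranges were -0.0234 to 0.139 for S100a6, -0.156 to 0.0392 for S100a11, -0.0760 to 0.0521 for Anxa2, -0.0524 to 0.102 for S100a10, -0.132 to 0.0612 for S100b, -0.0396 to 0.0390 for Anxa3, -0.132 to 0.0159 for S100a13, -0.0484 to 0.111 for Anxa7, -0.131 to 0.0449 for S100a1, -0.0353 to 0.0843 for Anxa11, -0.0920 to 0.0311 for S100pbp and -0.112 to 0.0696 for Anxa9. The number of all features called was 14, 147 in DESeq2, 6 at an adjusted p under 0.05, and 2 (without male pool 1) to 19 (without female pool 3) with 1 pool left out. Pools of the same replicate number showed little correlation over all features (-0.0448, -0.0416 and 0.0160), which cannot exclude a pairing. With the replicate block 4 features and no gene of the set were called. The block lowered the SE of some genes (S100a4, 0.156 to 0.0918) and raised that of others (S100a6, 0.0941 to 0.103). Counting all transcripts gave an annexin sum of 2496 TPM in males against 2388 TPM. The causes were not tested. Without the filter, edgeR gave the 6 low genes with any read adjusted p values of 0.89 to 0.99. With 3 pools per sex an exact permutation test cannot reach p = 0.05, and edgeR's robust fit may miss genes near 0 in 1 sex.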
